A study of Mus musculus with 18 samples.

Results

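Oocytes and blastocysts of C57BL/6 mice kept in filtered air were compared to see which maternal transcripts were lost and which embryonic ones were gained between the egg and the embryo before implantation. The comparison used 6 of the 18 libraries of the series: 3 of filtered-air blastocysts and 3 of filtered-air oocytes, chosen by their labels alone, with all 52550 genes of the table. The other libraries came from PM2.5 blastocysts and PM2.5 oocytes (mice of the group exposed to fine particulate matter) and from cumulus cells, the somatic cells around the oocyte, of both exposure groups, with 3 libraries in each group. No other treatment, transgene or deletion is named in the labels. They do not give the age of the mice, the meiotic stage of the oocytes, whether blastocysts developed in the animal or in culture, or how many oocytes or embryos were pooled in a library, and they leave it unsaid whether the 3 libraries of a group had different mothers. What the p-values weigh is library-to-library variation, and it could be technical.

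A fully grown oocyte is transcriptionally silent and carries a store of maternal mRNA, much of it masked with a short poly(A) tail. After meiotic maturation and fertilization this store is translated and then degraded while the embryonic genome is switched on. The blastocyst that follows has an outer epithelium, the trophectoderm, which pumps fluid into a cavity and will form placenta, and an inner cell mass that splits into epiblast and primitive endoderm.

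The values are log2(normalized count + 1) as deposited, so a difference of 1 is close to a doubling for a well expressed gene and understates the change of a low one. A level is relative to its own library, and in such bulk samples fewer cells of a type and less RNA per cell cannot be told apart. The part of poly(A) tail length in the oocyte levels was not tested. In each library 16512 to 17439 genes were above 0. The summed normalized counts were 472369, 491970 and 493662 in blastocysts and 294391, 292241 and 285842 in oocytes, and depth in reads is unknown. Pearson correlations across genes were 0.978 to 0.980 among the blastocysts and 0.982 to 0.987 among the oocytes, against 0.573 to 0.604 between the stages. The first principal component held 97.0% of the variance and separated the stages. On the second, with 0.910% of the variance, blastocyst replicate 1 at 16.7 and oocyte replicate 3 at 19.9 lay apart from the other 4 libraries, which were between -10.8 and -8.15.

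The stage markers followed the labels. Krt18, a keratin of the trophectoderm, stood at 10.43, 10.69 and 9.87 in blastocysts and was listed at 0 in all 3 oocyte libraries. Cdx2, the transcription factor that specifies trophectoderm, was at 6.39, 6.31 and 6.19 in blastocysts and at 0.00, 0.24 and 0.00 in oocytes. Gdf9, the growth factor by which the oocyte acts on its follicle, was at 0.97, 0.08 and 0.49 in blastocysts and at 10.84, 10.90 and 11.52 in oocytes. The oocyte linker histone H1foo was at 0.18, 0.21 and 1.31 in blastocysts and at 10.43, 10.52 and 10.71 in oocytes. For each of these genes the stages were far apart and did not overlap.

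Most markers of other cells were near 0. Of 18 cumulus and granulosa markers, 14 were at 0 in all blastocyst libraries and 5 in all oocyte libraries, and their summed level ran over 0.35 to 0.68 in blastocysts and 7.40 to 8.01 in oocytes. The largest single part of the oocyte sum was the aromatase gene Cyp19a1, at 4.02, 3.76 and 3.85 in oocytes and at 0 in blastocysts, while Fshr, Lhcgr, Amh, Foxl2 and Areg were at 0 in all oocyte libraries. For 10 leukocyte genes the summed level ran over 0.00 to 1.10 in blastocysts and 0.13 to 0.54 in oocytes. For 6 red blood cell genes it ran over 0.15 to 1.27 in blastocysts and 0.32 to 1.32 in oocytes. For 11 genes of oviduct and uterus it was 0.79 to 1.39 in blastocysts and 1.72 to 2.11 in oocytes, and for 8 sperm genes 0.57 to 2.16 in blastocysts and 0.54 to 1.07 in oocytes. Among them 1 gene of the oviduct and uterus list averaged above 1, in blastocysts. The part of such cells in the results was not tested.

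Most measured genes differed between the stages. Of 6797 genes tested, 3306 were higher in blastocysts, or 48.6%, and 2608 were lower, or 38.4%, by limma at an adjusted p under 0.05, which left 883 on neither side. Differences of 2 or more log2 units, about 4-fold, were met by 2176 genes upward (32.0%) and 1507 downward (22.2%). The 3 blastocyst values lay wholly above or below the 3 oocyte values for 87.9% of tested genes. Each count of a gene group is to be read against these shares, since most genes differed. A gene near 0 in 1 stage passed the filter, a mean of at least 2 over the 6 libraries, only if it was high in the other. For such genes the direction of a call was fixed by the filter, so their counts are no separate result. List medians include genes listed at 0 in a stage, for which no single difference is given. The median difference over all tested genes was 0.43 as deposited and -0.05, -0.06 and -0.14 under 3 other scalings (quantile normalization, equal medians, equal sums outside the mitochondrial genome), so differences within about 0.5 units of 0 depend on the scaling. The number higher and lower was 2914 and 2997, 2913 and 3017, and 2849 and 3087 under those scalings.

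**Figure D1:**
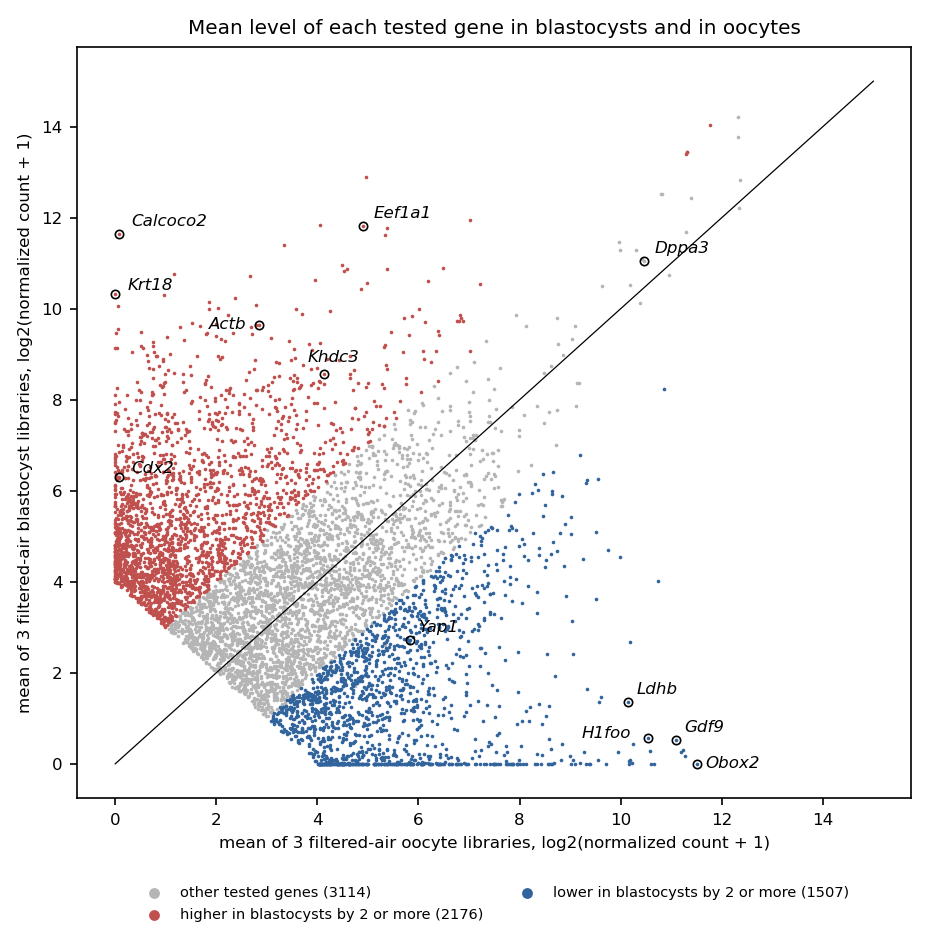
Mean level of each of the 6797 tested genes in the 3 filtered-air blastocyst libraries (vertical axis) against the mean in the 3 filtered-air oocyte libraries (horizontal axis), in log2(normalized count + 1) units, with the line of equal levels. The 2176 and 1507 genes that differ by 2 or more lie toward the axes, with Krt18 and Calcoco2 at the blastocyst edge, Obox2 and Gdf9 at the oocyte edge, and Dppa3 high in both stages; the empty corner at low levels is the filter on the mean.

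The genes that differed strongly made up most of what each library held. The genes higher by 2 or more held 65.5%, 60.2% and 59.3% of the summed normalized counts in blastocysts and 7.46%, 6.92% and 7.01% in oocytes. Genes lower by 2 or more held 1.44%, 1.46% and 1.49% in blastocysts and 47.6%, 48.6% and 50.9% in oocytes. These shares describe the libraries in which the genes were chosen. In the PM2.5 libraries, which did not enter that choice, the first set held 63.6%, 58.0% and 60.7% of blastocysts and 8.01%, 8.19% and 8.78% of oocytes, and the second 1.51%, 1.57% and 1.48% of blastocysts and 46.9%, 46.2% and 45.5% of oocytes. Ribosomal protein genes alone took 11.4%, 9.70% and 9.09% of filtered-air blastocysts and 0.294%, 0.324% and 0.452% of filtered-air oocytes.

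**Figure D2:**
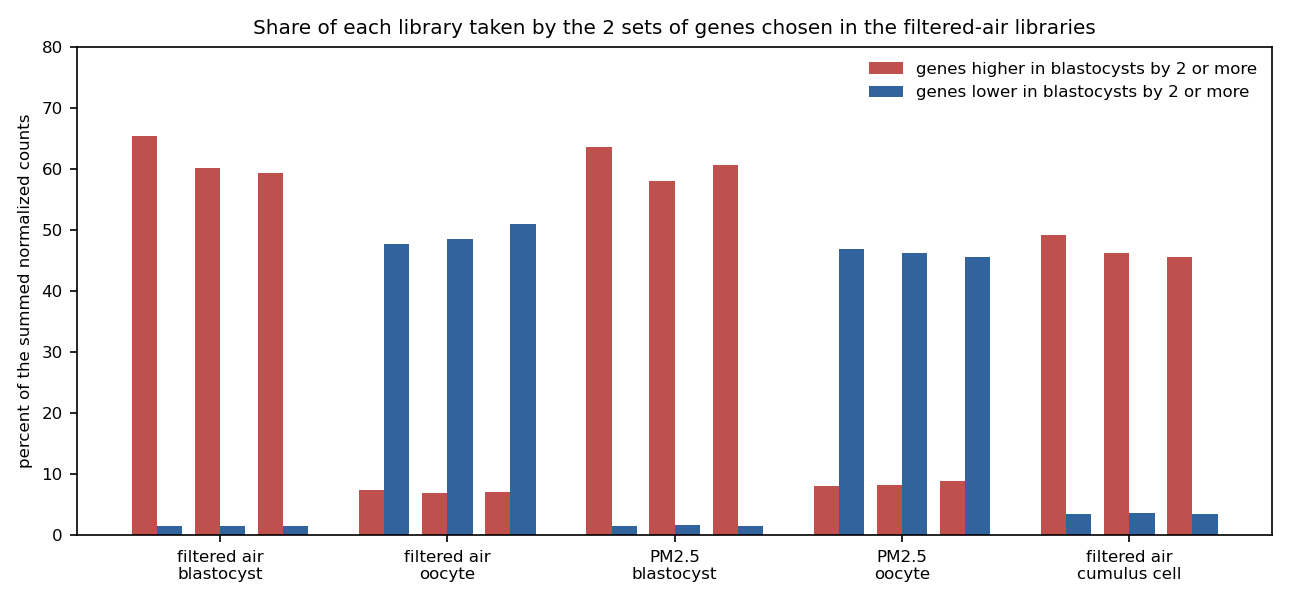
Percent of each library's summed normalized counts taken by the genes higher in blastocysts by 2 or more (red) and by those lower by 2 or more (blue), 1 pair of bars per library and 3 libraries per group. Sets were chosen in the filtered-air blastocysts and oocytes; in the PM2.5 libraries the red bars stand at 58.0% to 63.6% in blastocysts and 8.01% to 8.78% in oocytes, and the filtered-air cumulus cells sit between at 45.6% to 49.2%.

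The oocyte's own products were almost gone from the blastocyst. All 3 zona pellucida genes, which encode the glycoproteins of the egg coat, were lower. Zp3, which carries the main coat protein, was at 0.00, 0.46 and 0.71 in blastocysts and at 7.19, 7.13 and 7.78 in oocytes, a difference of -6.98 (SE 0.25, limma adjusted p = 6.42e-08). Zp2 was at 0.86, 0.00 and 0.58 in blastocysts and at 4.99, 5.11 and 6.61 in oocytes, and Zp1 at 0.67, 0.00 and 0.00 in blastocysts against 4.60, 4.78 and 6.26 in oocytes. Oocyte replicate 3 was the highest of its group for all 3, and the stages did not overlap.

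Factors secreted by the oocyte had the lowest median of all lists. Of 7 genes on this list 6 were tested and 6 were lower, with a median difference of -10.34 against 0.43 over all genes. Over all 7, tested or not, the median level was 0.05 in blastocysts and 10.16 in oocytes. Bmp15, the X-linked partner of Gdf9, was at 0.00, 0.00 and 0.16 in blastocysts and at 9.99, 10 and 10.50 in oocytes, a difference of -10.11 (SE 0.17, limma adjusted p = 4.85e-09). Oosp1, an oocyte-secreted protein, was at 0.00, 0.00 and 0.75 in blastocysts and at 11.17, 11.11 and 11.28 in oocytes. Bmp6 was lower by a smaller step, at 0.23, 0.00 and 0.21 in blastocysts against 5.38, 5.18 and 5.28 in oocytes. Oosp2 and Oosp3 were listed at 0 in all blastocysts. Oosp3 stood at 10.54, 10.53 and 10.74 in oocytes. The untested member, Fgf8, was listed at 0 in all blastocysts and at 1.57, 1.56 and 1.33 in oocytes.

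The subcortical maternal complex, a protein assembly under the egg membrane that early cleavage needs, moved in both directions. Of 6 tested members 5 were lower and 1 was higher. Zbed3 was at 0.27, 0.04 and 0.18 in blastocysts and at 11.18, 11.28 and 11.37 in oocytes. Nlrp5, also called MATER, was at 0.00, 0.00 and 0.12 in blastocysts and at 5.71, 5.73 and 6.74 in oocytes. Ooep kept a clear level, at 4.64, 4.67 and 4.61 in blastocysts against 6.10, 6.19 and 7.15 in oocytes, a difference of -1.84 (SE 0.27, limma adjusted p = 2.74e-04). Khdc3, also called FILIA, went the other way, at 8.68, 8.6 and 8.39 in blastocysts against 3.43, 3.62 and 5.37 in oocytes, a difference of 4.42 (SE 0.47, limma adjusted p = 3.62e-05). Tle6 was at 1.52, 0.70 and 0.36 in blastocysts and at 5.64, 5.67 and 6.84 in oocytes, and Padi6 at 1.32, 0.69 and 1.11 in blastocysts against 5.19, 5.21 and 5.88 in oocytes. Nlrp2 did not pass the filter. Oocyte replicate 3 was the highest oocyte library for all 6 tested members, and without it Khdc3, Nlrp5, Ooep and Zbed3 kept their sign and their call.

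Among 10 tested Nlrp genes outside that complex 9 were lower and 1, Nlrp4c, was higher, at 3.35, 3.17 and 3.47 in blastocysts against 1.97, 1.66 and 1.54 in oocytes. Nlrp14 was at 0.00, 0.56 and 0.11 in blastocysts and at 8.25, 8.36 and 8.44 in oocytes, and Nlrp4a, Nlrp4b, Nlrp4g and Nlrp9c were listed at 0 in all 3 blastocyst libraries. The oocyte-expressed Oog, Fbxw and Obox families, tandem gene clusters of the mouse, had 18 members tested and 18 lower, with a median difference of -7.80. Over all 24 members, tested or not, the median level was 0.0070 in blastocysts and 7.51 in oocytes. Obox2, an oocyte homeobox gene, was listed at 0 in all 3 blastocyst libraries and stood at 11.49, 11.53 and 11.51 in oocytes (limma adjusted p = 1.86e-09). Fbxw24, an F-box gene, was at 0.22, 0.00 and 0.06 in blastocysts and at 9.49, 9.53 and 9.66 in oocytes. These families hold near-identical copies, and how reads were divided among copies is not given in the sources used here, so single copies are uncertain.

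Some of the genes lost were neighbours on a chromosome; those named here were chosen after their values were seen. Runs were counted as 5 or more strongly lower genes (by 2 or more), or as many strongly higher ones, each starting at most 50000 bases after the one before, whatever other genes lay between. There were 2 runs of lower genes, with no other tested gene inside them, and 10 of higher genes, some of which spanned tested genes that were not strongly higher. One held 6 of the 6 tested genes at chr12:105147019-105222737 (GRCm38, RefSeq), namely Tcl1b2, Tcl1b1, Tcl1b5, Tcl1b3, Tcl1b4 and Tcl1. Tcl1, a co-activator of the kinase AKT, was at 1.42, 1.57 and 1.10 in blastocysts and at 9.61, 9.61 and 9.5 in oocytes, and the 5 Tcl1b genes were listed at 0 in all blastocysts. The other held the 5 tested genes of an Fbxw block at chr9:109432318-109626059, with Fbxw16, Fbxw19, Fbxw23, Fbxw15 and Fbxw24. The runs took in 0.764% of the strongly lower and 2.37% of the strongly higher genes with a known position, so most genes of either set lay outside them.

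Promoter windows were set beside these levels. The windows are the 250 bases before the annotated start of each gene (RefSeq, GRCm38.p6), matched by symbol for 1095 of 1341 protein-coding genes lower by 2 or more. Of these, 199 belonged to genes that averaged under 1 in both blastocysts and cumulus cells. This cut leaves out oocyte genes with a cumulus signal, such as Obox2, which averaged 3.85 in filtered-air cumulus libraries. Those 199 held a median of 7 CpG dinucleotides and 52.8% G and C, against 17 and 60.4% over 4854 windows of tested coding genes and 6 and 52.0% over all 27025 windows. The letters TAATTG, a sequence that the oocyte homeobox factor NOBOX is known to bind, were found on either strand in 20 of the 199 windows, or 10.05%, against 4.39% of tested coding windows and 7.34% of all 27025 windows. A match describes the letters and not a site, and no test was made. The windows of 2 genes follow because they belong to the genes with the largest differences in that set that carry the letters, chosen after their values were seen. The letters are in capitals, 79 bases before the start in Trim75 at chr8:64987645-64987894 (minus strand) and 99 bases before it in Oog4 at chr4:143450325-143450574 (minus strand), where they read on the opposite strand.
Trim75: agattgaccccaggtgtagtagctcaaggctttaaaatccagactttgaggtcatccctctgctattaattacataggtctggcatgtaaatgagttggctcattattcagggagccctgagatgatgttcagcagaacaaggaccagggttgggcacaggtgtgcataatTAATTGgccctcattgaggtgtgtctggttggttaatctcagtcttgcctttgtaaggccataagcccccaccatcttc
Oog4: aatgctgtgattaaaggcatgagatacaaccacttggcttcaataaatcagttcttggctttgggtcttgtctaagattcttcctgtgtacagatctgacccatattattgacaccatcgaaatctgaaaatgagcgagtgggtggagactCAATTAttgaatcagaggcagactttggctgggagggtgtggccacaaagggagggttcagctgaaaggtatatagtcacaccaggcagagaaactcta
Trim75, a gene of the tripartite motif family, was at 0.00, 0.00 and 0.21 in blastocysts and at 7.74, 7.76 and 7.69 in oocytes. Oog4, an oogenesin gene, was at 0.00, 0.00 and 0.79 in blastocysts and at 7.40, 7.47 and 7.73 in oocytes. NOBOX's own gene, Nobox, was not tested, and was listed at 0 in all blastocysts and at 3.31, 3.39 and 4.47 in oocytes.

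Transcription factors of the growing oocyte were modest in level. Of 9 listed, 4 passed the filter and all 4 were lower. Lhx8 was at 0.00, 0.89 and 0.00 in blastocysts and at 4.28, 4.25 and 4.30 in oocytes, a difference of -3.98 (SE 0.26, limma adjusted p = 1.62e-06). Taf4b, a germ-cell subunit of the general factor TFIID, differed least, at 2.92, 3.71 and 3.54 in blastocysts against 4.18, 4.04 and 4.03 in oocytes. Figla, a regulator of the zona genes, was listed at 0 in blastocysts and at 1.26, 0.76 and 1.31 in oocytes.

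Genes of meiotic arrest and resumption moved in both directions. Of 22 tested, 14 were lower and 6 higher as deposited, and 14 to 15 were lower and 2 higher under the other scalings. Mos, the kinase that holds the egg in metaphase II, was at 0.0025, 0 and 0.0010 in blastocysts and at 9.32, 9.23 and 9.61 in oocytes, a difference of -9.38 (SE 0.14, limma adjusted p = 3.90e-09). Wee2, an oocyte kinase that inhibits CDK1, was listed at 0 in all blastocysts and stood at 8.04, 8.13 and 8.04 in oocytes, and Fbxo43, which encodes the APC/C inhibitor EMI2, was at 0 there against 6.10, 6.22 and 6.34 in oocytes. Pde3a, the phosphodiesterase whose activity lets meiosis resume, was at 0.39, 0.01 and 0.27 in blastocysts and at 5.07, 5.01 and 5.16 in oocytes. Cdk1, the mitotic kinase itself, was higher, at 5.0, 4.51 and 4.60 in blastocysts against 0.78, 1.07 and 1.52 in oocytes, as was Cdc20, an activator of the APC/C, at 7.01, 6.75 and 6.71 in blastocysts against 4.98, 5.04 and 5.30 in oocytes. Ccnb1, a cyclin partner of CDK1, was lower at 6.89, 7.14 and 6.97 in blastocysts against 8.57, 8.95 and 8.62 in oocytes, while Ccnb2 was higher by 0.53 as deposited, a difference that turned negative under quantile normalization and under equal sums.

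Of 21 listed genes of the synaptonemal complex, recombination and cohesion 9 were tested, with 7 lower and none higher. Over all 21, tested or not, the median level was 1.2 in blastocysts and 0.997 in oocytes. So the lower calls describe the tested members and not the whole list. Sycp2 was at 0.00, 0.00 and 0.47 in blastocysts and at 5.48, 5.42 and 5.31 in oocytes. Msh4, which stabilizes crossovers, was at 0.14, 0.11 and 0.01 in blastocysts and at 4.15, 4.05 and 4.04 in oocytes. Sycp3 did not pass the test, at 4.26, 5.20 and 4.84 in blastocysts and 4.61, 4.58 and 4.53 in oocytes. Those of the germline piRNA pathway, which silences transposons, were mostly below the filter, and of 4 tested 3 were lower. The fourth, Mael, was higher, at 5.26, 4.34 and 5.35 in blastocysts against 2.51, 2.67 and 2.61 in oocytes.

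Genes for storing and for destroying maternal mRNA were mostly lower. Of 12 tested genes of mRNA storage 10 were lower, with a median difference of -3.04. Dazl, an RNA-binding activator of translation in germ cells, was at 0.00, 0.27 and 0.52 in blastocysts and at 10.05, 10.04 and 9.75 in oocytes, a difference of -9.68 (SE 0.17, limma adjusted p = 5.52e-09). Zar1, a maternal-effect gene whose product stores mRNA, was at 0.00, 0.03 and 0.00 in blastocysts and at 9.03, 8.99 and 9.58 in oocytes. Cpeb1, which controls cytoplasmic polyadenylation, was at 0.34, 0.44 and 0.54 in blastocysts and at 6.39, 6.51 and 6.49 in oocytes. Patl2, higher by 0.64 as deposited, did not pass under the other 3 scalings.

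Of 16 tested genes of mRNA decay 11 were lower and 4 higher. Btg4, the adaptor that brings the deadenylase to maternal mRNA, was listed at 0 in all blastocysts and stood at 10.12, 10.20 and 10.19 in oocytes (limma adjusted p = 1.86e-09). Cnot6l, the catalytic deadenylase subunit it works with, was at 0.65, 0.60 and 0.79 in blastocysts and at 7.89, 7.74 and 7.14 in oocytes, and the decapping gene Dcp1a at 2.41, 2.63 and 2.58 in blastocysts against 7.14, 7.29 and 7.27 in oocytes. Not all subunits of the CCR4-NOT complex followed. Cnot9 was higher, at 5.23, 4.88 and 5.22 in blastocysts against 1.78, 1.63 and 1.83 in oocytes, and so was Zfp36l2, an RNA-binding recruiter of that complex, at 4.07, 4.63 and 3.68 in blastocysts against 1.62, 1.37 and 1.64 in oocytes.

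Genes of fertilization were lower in 4 of 6 tested. Astl, the cortical granule protease ovastacin that cleaves ZP2 after fertilization, was listed at 0 in all blastocysts and stood at 5.68, 5.63 and 6.34 in oocytes. Plat, tissue plasminogen activator, was at 0.72, 1.79 and 0.66 in blastocysts and at 8.34, 8.39 and 8.84 in oocytes. Cd9, the membrane protein needed for sperm fusion and also made by many epithelia, was higher, at 7.0, 6.85 and 6.77 in blastocysts against 3.05, 3.20 and 3.75 in oocytes. Rgs2, a regulator of G protein signaling, was listed at 0 in all blastocysts and stood at 9.42, 9.43 and 9.12 in oocytes.

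**Figure D3:**
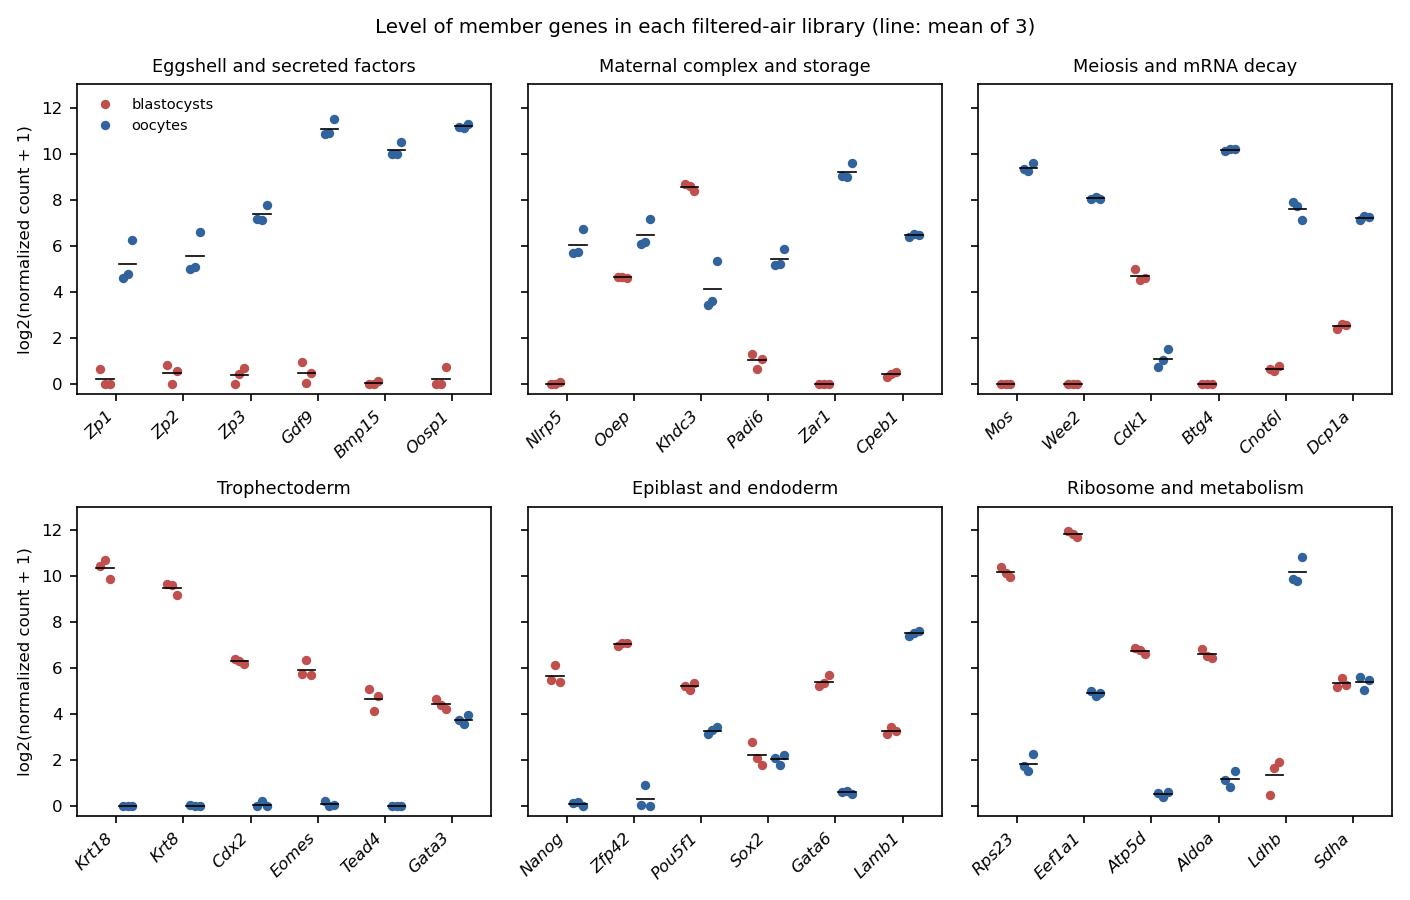
Level of 36 genes in each filtered-air library, with the 3 blastocyst libraries (red, left) beside the 3 oocyte libraries (blue, right) and their means as lines; the vertical axis is log2(normalized count + 1). Oocyte products such as Gdf9 and Btg4 lie near 0 in blastocysts, Krt18 and Tead4 are at 0 in oocytes, Khdc3 and Cdk1 go against their neighbours, and Sox2 and Sdha overlap between the stages.

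Chromatin genes moved in both directions. The list of linker and variant histones and their chaperones had 16 tested members, 5 higher and 7 lower, with a median difference of -0.30 that lay between -0.78 and -0.92 under the other scalings. Npm2, the egg nucleoplasmin that remodels sperm chromatin, was at 1.35, 0.00 and 0.53 in blastocysts and at 7.66, 7.64 and 7.33 in oocytes. H2afz, an H2A variant of promoters, was at 9.06, 8.53 and 8.83 in blastocysts and at 3.51, 3.07 and 3.11 in oocytes, a difference of 5.57 (SE 0.19, limma adjusted p = 4.91e-08). H2afy, macroH2A, was at 5.02, 4.81 and 4.74 in blastocysts and at 1.10, 1.26 and 1.38 in oocytes.

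Among DNA methylation genes 5 of 9 tested were lower and 3 higher, and 1 to 2 were higher under the other scalings. Dnmt1, the maintenance methyltransferase, was at 1.43, 0.92 and 0.72 in blastocysts and at 5.16, 5.45 and 5.48 in oocytes. Tet3, the oxidase of the zygote, was at 0.07, 0.26 and 0.33 in blastocysts and at 5.95, 6.05 and 6.05 in oocytes, and Zfp57, which keeps imprints methylated, at 1.48, 0.74 and 0.99 in blastocysts against 6.24, 6.25 and 6.68 in oocytes. Dnmt3b, a de novo methyltransferase, was higher, at 4.79, 4.65 and 4.63 in blastocysts against 2.97, 3.36 and 3.30 in oocytes. Dppa3, which protects the maternal genome from demethylation, was high in both stages, at 11.25, 10.81 and 11.05 in blastocysts and 10.33, 10.36 and 10.69 in oocytes. Its difference of 0.58 turned to -0.06 under equal sums and did not pass under the other 2 scalings.

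Transcripts typical of the 2-cell embryo were mostly below the filter. Of 18 listed, 2 were tested and both were lower, and the Zscan4 genes and Zfp352 had levels under 1 in all 6 libraries. Tcstv1 was at 1.58, 0.76 and 0.91 in blastocysts and at 6.29, 6.65 and 6.53 in oocytes. Tcstv3 was at 0.00, 0.04 and 4.15 in blastocysts and at 4.92, 5.21 and 4.76 in oocytes, so that blastocyst replicate 3 stood near the oocytes for this gene.

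Trophectoderm genes were among the largest gains. Of 13 tested genes 11 were higher and none lower as deposited, with a median difference of 5.78 against 0.43 over all genes. Under each other scaling 10 were higher, and under equal sums 1 was lower. Over all 21 listed, tested or not, the median level was 4.44 in blastocysts and 0.08 in oocytes. Krt8, the partner of Krt18, was at 9.64, 9.62 and 9.16 in blastocysts and at 0.04, 0.00 and 0.00 in oocytes, a difference of 9.46 (SE 0.16, limma adjusted p = 5.05e-09). Fabp3, a fatty acid binding protein, was at 10.35, 9.91 and 9.89 in blastocysts and at 0.00, 0.14 and 0.00 in oocytes. Eomes, a T-box factor of trophoblast stem cells, was at 5.73, 6.36 and 5.68 in blastocysts and at 0.25, 0.03 and 0.06 in oocytes. Some factors of the lineage were already present in oocytes. Gata3 was at 4.67, 4.40 and 4.24 in blastocysts against 3.77, 3.56 and 3.96 in oocytes, a difference of 0.67 (SE 0.18, limma adjusted p = 0.00702), and lost the call under the other scalings. Tfap2c did not pass, at 3.76, 4.15 and 3.76 in blastocysts and 3.81, 3.83 and 3.52 in oocytes. Markers of later trophoblast such as Hand1 and Ascl2 did not pass the filter, with Hand1 at 0.13, 0.00 and 1.41 in blastocysts and 0 in oocytes.

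Genes of the fluid-pumping epithelium moved in both directions. Of 19 tested, 12 were higher and 3 lower, and 10 were higher and 7 lower under each other scaling. Aqp3, a water channel, was at 5.72, 5.44 and 5.81 in blastocysts and listed at 0 in all oocytes. Epcam, an epithelial adhesion molecule, was at 8.88, 9.15 and 8.85 in blastocysts and at 0.89, 0.87 and 0.74 in oocytes, a difference of 8.13 (SE 0.14, limma adjusted p = 4.93e-09). E-cadherin, from Cdh1, did not pass as deposited and was called lower under all 3 other scalings, at 5.93, 5.87 and 5.84 in blastocysts and 5.8, 5.76 and 5.91 in oocytes. Its partner Ctnnb1 was lower, at 5.76, 5.85 and 5.79 in blastocysts against 7.74, 7.75 and 7.53 in oocytes. The sodium pump subunit Atp1b3 was lower, at 6.33, 5.76 and 6.72 in blastocysts against 7.41, 7.45 and 7.47 in oocytes, while Atp1b1 was higher, at 4.94, 5.12 and 4.88 in blastocysts against 3.91, 4.14 and 3.98 in oocytes.

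In the Hippo pathway, which tells outer from inner cells, the 2 co-activators moved in opposite directions. Wwtr1, which encodes TAZ, was at 3.93, 4.35 and 4.83 in blastocysts and at 0.03, 0.05 and 0.18 in oocytes, a difference of 4.28 (SE 0.24, limma adjusted p = 6.57e-07). Yap1 was at 2.93, 2.58 and 2.63 in blastocysts and at 5.90, 5.88 and 5.74 in oocytes, a difference of -3.12 (SE 0.15, limma adjusted p = 3.06e-07). Tead4, the DNA-binding partner of both in trophectoderm, was at 5.11, 4.14 and 4.77 in blastocysts and listed at 0 in all oocytes. The upstream kinase Stk3 was at 2.16, 2.75 and 2.58 in blastocysts against 6.10, 6.24 and 5.57 in oocytes. Of 17 listed genes 9 were tested, with 3 higher and 3 lower, and 3 higher and 5 lower under the other scalings. Over all 17, tested or not, the median level was 2.08 in blastocysts and 0.57 in oocytes. A mean of at least 1 was reached by 15 of them in blastocysts and 8 in oocytes.

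The inner cell mass was represented by 13 tested genes of epiblast and pluripotency, of which 11 were higher and 1 lower, with a median difference of 4.16. Nanog was at 5.50, 6.14 and 5.38 in blastocysts and at 0.14, 0.20 and 0.00 in oocytes, a difference of 5.56 (SE 0.23, limma adjusted p = 1.19e-07). Zfp42, also called Rex1, was at 6.98, 7.06 and 7.11 in blastocysts and at 0.08, 0.94 and 0.00 in oocytes. Pou5f1, which encodes OCT4, was already present, at 5.22, 5.05 and 5.33 in blastocysts against 3.13, 3.30 and 3.43 in oocytes. Sox2 did not pass, at 2.78, 2.10 and 1.78 in blastocysts and 2.09, 1.82 and 2.22 in oocytes, and its groups overlapped. Sall4 was the member that fell, at 4.96, 5.01 and 4.74 in blastocysts against 6.86, 6.80 and 6.69 in oocytes.

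Of 18 primitive endoderm genes 5 passed the filter, among them Gata6, an early factor of the lineage. Gata6 was at 5.20, 5.34 and 5.68 in blastocysts and at 0.62, 0.67 and 0.56 in oocytes, a difference of 4.79 (SE 0.17, limma adjusted p = 7.10e-08). Sox17 was at 1.99, 1.08 and 0.72 in blastocysts and at 0.00, 0.04 and 0.00 in oocytes, and Gata4 at 0.77, 1.32 and 0.04 in blastocysts against 2.54, 3.13 and 3.40 in oocytes; neither passed the filter. Lamb1, a laminin chain, was lower, at 3.16, 3.43 and 3.27 in blastocysts against 7.41, 7.52 and 7.58 in oocytes. Of 5 tested, 3 were higher and 1 lower. Fgfr1, 1 of the 3, was the median of the list and turned negative under all 3 other scalings.

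FGF and LIF signaling changed by single genes, with 2 of 7 tested higher and 2 lower and a list median of 0.20 that was negative under the other 3 scalings. The feedback inhibitors of the Sprouty family moved in opposite directions. Spry2 was at 5.42, 4.69 and 5.27 in blastocysts and at 0.13, 0.00 and 0.00 in oocytes, and Spry4 was at 0.00, 0.24 and 0.00 in blastocysts and at 5.59, 5.61 and 5.76 in oocytes. The ligand Fgf4 did not pass the filter, at 1.54, 1.24 and 0.29 in blastocysts and 0 in oocytes. Fgfr2, its trophectoderm receptor, did not pass the test, at 3.83, 3.49 and 3.55 in blastocysts and 3.64, 3.39 and 3.31 in oocytes, but was called lower under equal sums.

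Among the remaining largest gains, Calcoco2, an autophagy receptor, was at 11.89, 11.55 and 11.47 in blastocysts and at 0.10, 0.14 and 0.00 in oocytes, a difference of 11.56 (SE 0.15, limma adjusted p = 2.58e-09). AA467197 was at 9.34, 9.26 and 8.79 in blastocysts and listed at 0 in all oocytes, and the homeobox gene Crxos was at 9.38, 9.16 and 8.85 in blastocysts against 0.13, 0.00 and 0.00 in oocytes. Mt2, a metallothionein, was at 9.98, 9.13 and 9.35 in blastocysts and at 0.66, 0.36 and 0.53 in oocytes. Dppa5a, a pluripotency-associated gene, was at 11.86, 11.59 and 11.44 in blastocysts, among the 10 highest named there, and at 4.66, 5.15 and 6.22 in oocytes. Spin1, which encodes a spindle-associated protein, was not a gain but was lower in blastocysts. It was at 4.39, 2.97 and 4.72 in blastocysts and at 10.64, 10.74 and 10.84 in oocytes, among the 10 highest named there. Slc6a8, the creatine transporter, was at 8.41, 8.29 and 8.05 in blastocysts and at 0.00, 0.05 and 0.05 in oocytes.

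Promoter windows of blastocyst-restricted genes were treated likewise. They were matched for 1420 of 1759 protein-coding genes higher by 2 or more, and 92 of these genes averaged under 1 in oocytes and in cumulus cells. Their windows held a median of 5.5 CpG and 53.4% G and C, close to the 6 and 52.0% of all windows. The letters GGAATG, the core that TEAD factors are known to bind, were found on either strand in 19 of the 92, or 20.7%, against 10.05% of 4854 tested coding windows and 12.6% of all 27025 windows. The windows of the 2 genes with the largest differences among the carriers follow, again chosen after their values were seen and with the letters in capitals. They lie 218 bases before the start in Pramel7 at chr2:87492419-87492668 (minus strand) and 45 bases before it in Zfp42 at chr8:43307010-43307259 (minus strand), where they read on the opposite strand.
Pramel7: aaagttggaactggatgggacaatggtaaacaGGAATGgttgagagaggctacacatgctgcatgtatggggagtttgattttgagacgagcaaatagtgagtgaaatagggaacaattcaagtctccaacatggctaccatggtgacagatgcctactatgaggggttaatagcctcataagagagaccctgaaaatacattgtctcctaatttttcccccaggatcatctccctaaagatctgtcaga
Zfp42: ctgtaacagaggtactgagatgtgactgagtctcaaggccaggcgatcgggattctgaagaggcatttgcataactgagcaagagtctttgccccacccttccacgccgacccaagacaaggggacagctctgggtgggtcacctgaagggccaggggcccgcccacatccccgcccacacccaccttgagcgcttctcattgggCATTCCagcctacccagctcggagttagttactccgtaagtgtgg
Pramel7, a gene of the inner cell mass linked to naive pluripotency, was at 7.24, 7.90 and 7.79 in blastocysts and at 0.00, 0.16 and 0.00 in oocytes.

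Ribosomal protein genes moved in 1 direction. Of 85 cytosolic ribosomal protein genes 84 were tested, and 84 were higher, 83 of them by 2 or more, with a median difference of 5.90 and a range of 1.98 to 8.29. They kept this count under all 3 other scalings. Rps23 was at 10.38, 10.13 and 9.94 in blastocysts and at 1.76, 1.56 and 2.26 in oocytes, a difference of 8.29 (SE 0.21, limma adjusted p = 1.57e-08). Rpl9 was at 8.23, 8.16 and 8.14 in blastocysts and at 0.51, 0.48 and 0.53 in oocytes, and Rplp1, the most abundant in oocytes of those named, at 12.09, 11.90 and 11.85 in blastocysts against 6.33, 6.86 and 7.88 in oocytes. In cumulus cells the list had a median level of 8.2, beside 8.38 in blastocysts and 2.33 in oocytes. Ribosomal protein genes have many processed pseudogenes, and of the 2176 strongly higher genes 335 are pseudogenes in RefSeq, against 39 of the 1507 strongly lower ones and 528 of the 6797 tested. How reads were divided between such copies is not given in the sources used here.

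Ribosomal protein mRNAs are known for a run of pyrimidines at the 5' end that ties their translation to growth signals. A C followed by at least 4 more pyrimidines within 10 bases of the annotated start was present in 33 of 63 matched windows, or 52.4%, against 27.9% of tested coding windows and 26.5% of all. The strand searched was that of the gene. For the 3 carriers with the largest differences, the 25 bases before the start and 15 from it follow, with the run in capitals, at chr13:90923097-90923136, chr2:32961687-32961726 and chr11:98026685-98026724, all on the plus strand. The run in Rpl19 lies before the annotated start, so by that start it is outside the mRNA. In Rps23 and Rpl12 it lies after the start.
Rps23: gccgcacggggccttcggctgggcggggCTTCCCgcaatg
Rpl12: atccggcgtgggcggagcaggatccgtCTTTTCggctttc
Rpl19: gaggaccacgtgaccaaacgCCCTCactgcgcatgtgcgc
Rpl12 was at 9.19, 8.86 and 8.84 in blastocysts and at 0.74, 0.56 and 1.10 in oocytes, and Rpl19 at 10.15, 9.96 and 9.93 in blastocysts against 2.18, 1.73 and 2.22 in oocytes.

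Translation factors were mostly higher. Of 57 tested, 46 were higher and 8 lower, and 38 to 40 were higher under the other scalings, with a median difference of 2.73. Eef1a1, the elongation factor that delivers tRNA, was at 11.92, 11.81 and 11.69 in blastocysts and at 5.01, 4.78 and 4.91 in oocytes, a difference of 6.91 (SE 0.13, limma adjusted p = 7.10e-09). Those that fell included Eif4e3, a cap-binding protein, at 0.64, 0.65 and 1.36 in blastocysts against 8.40, 8.41 and 8.55 in oocytes, and Eif4enif1, a repressor of cap-dependent translation, at 4.0, 3.70 and 4.04 in blastocysts against 6.72, 6.72 and 6.71 in oocytes. Ribosome biogenesis genes changed less: 13 of 19 tested were higher and 1 was lower, and under the other scalings 10 to 11 were higher and 4 lower. Nhp2, a snoRNP protein, was at 7.80, 7.65 and 7.68 in blastocysts and at 0.58, 0.66 and 0.26 in oocytes, whereas Dkc1, its partner, was lower, at 6.02, 6.59 and 6.33 in blastocysts against 7.57, 7.16 and 7.25 in oocytes.

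Mitochondrial genes of the nucleus were likewise higher. Of 73 tested genes of oxidative phosphorylation 68 were higher and 1 lower, with a median difference of 4.12, while 3 to 5 were lower under the other scalings. Of 70 mitochondrial ribosomal proteins 64 were higher and 2 lower, with a median difference of 2.505. Atp5d, a subunit of ATP synthase, was at 6.86, 6.78 and 6.61 in blastocysts and at 0.60, 0.42 and 0.61 in oocytes. Uqcrc2, a core subunit of complex III, was the member that fell, at 6.81, 7.09 and 6.57 in blastocysts against 7.50, 7.48 and 7.47 in oocytes. Sdha, of complex II, did not pass as deposited and was called lower under equal medians and equal sums, at 5.17, 5.58 and 5.26 in blastocysts and 5.6, 5.06 and 5.48 in oocytes.

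The genes carried by the mitochondrial genome itself moved far less. Of 13 tested 8 were higher and 1 lower as deposited, against 4 higher and 3 lower under quantile normalization and 6 higher and 2 lower under the other 2 scalings. The median difference of 1.04 became -0.16 under quantile normalization. The mitochondrial share of the summed counts was 14.7%, 21.9% and 22.6% in blastocysts and 16.0%, 14.2% and 11.4% in oocytes, which overlap. Transcripts mt-Co1, mt-Co2 and mt-Co3, for subunits of cytochrome oxidase, were higher by 1.88, by 2.13 and by 1.72, and mt-Co1 did not pass under quantile normalization. For mt-Atp6 the stages overlapped, at 10.46, 13.03 and 13.17 in blastocysts and 12.46, 12.66 and 11.92 in oocytes, and without blastocyst replicate 1 the difference was 0.75 and passed the threshold, in place of -0.13.

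Glycolysis genes were mostly higher. Of 10 tested genes of glycolysis 9 were higher and 1 was lower. Aldoa, aldolase, was at 6.84, 6.54 and 6.42 in blastocysts and at 1.15, 0.86 and 1.53 in oocytes, and Slc2a3, the glucose transporter GLUT3, at 4.92, 5.54 and 5.08 in blastocysts against 0.07, 0.09 and 0.09 in oocytes. Ldhb, the lactate dehydrogenase of cells that use lactate and pyruvate, was the exception, at 0.48, 1.69 and 1.91 in blastocysts against 9.88, 9.78 and 10.80 in oocytes, a difference of -8.79 (SE 0.42, limma adjusted p = 2.76e-07). Of 18 tested genes of cholesterol synthesis, which oocytes are known to obtain from cumulus cells, 13 were higher and 4 lower. Pmvk was at 7.19, 6.67 and 6.68 in blastocysts and at 0.00, 0.07 and 0.14 in oocytes. Hmgcs1, near the head of the pathway, was lower, at 4.75, 4.0 and 4.43 in blastocysts against 7.34, 7.39 and 7.88 in oocytes.

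**Figure D4:**
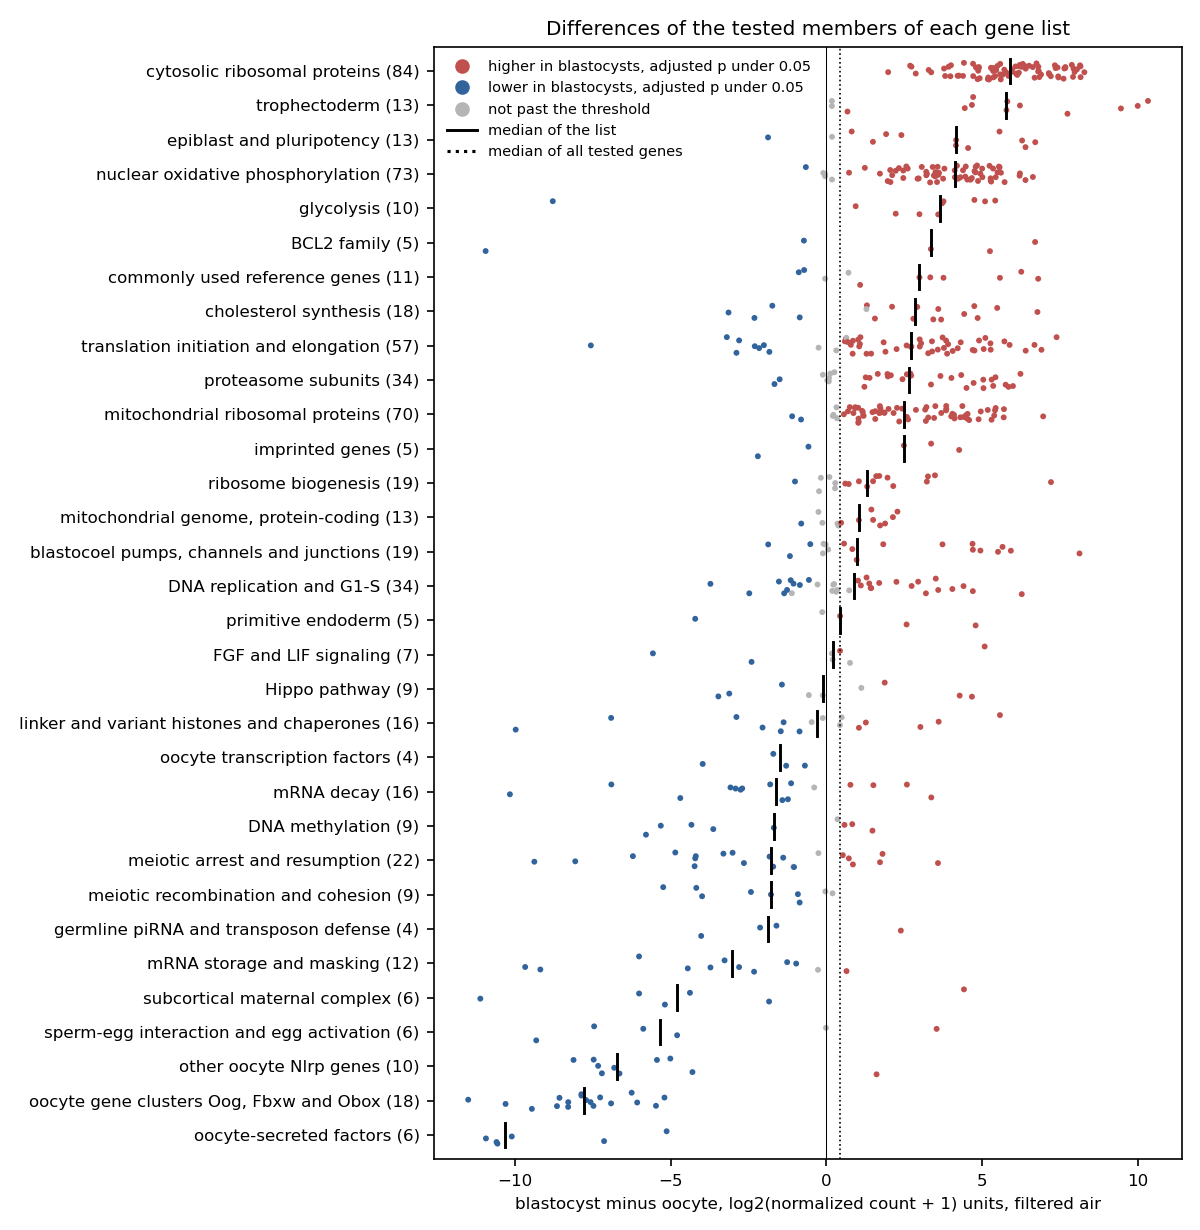
Differences of the tested members of each gene list with at least 4 of them, blastocyst minus oocyte in log2(normalized count + 1) units, with the number of tested members in brackets; red and blue points passed the test, grey ones did not, the black bar is the list's median and the dotted line the 0.43 of all tested genes. Cytosolic ribosomal proteins sit at a median of 5.90 and oocyte-secreted factors at -10.34; points of genes listed at 0 in a stage have no fold change and are drawn at their deposited difference.

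Of 34 tested proteasome subunits 26 were higher and 2 lower, and 4 to 7 were lower under the other scalings. Psmd13 was at 6.48, 6.46 and 6.42 in blastocysts against 0.22, 0.15 and 0.31 in oocytes. Of 34 tested genes of DNA replication and the G1-S step 17 were higher and 9 lower. Cdk4 was at 6.58, 6.62 and 6.66 in blastocysts against 0.47, 0.17 and 0.40 in oocytes, while Ccne2, cyclin E2, was at 1.30, 1.92 and 1.64 in blastocysts against 5.25, 5.6 and 5.19 in oocytes. In the BCL2 family the anti-apoptotic Mcl1 was at 6.28, 6.56 and 6.34 in blastocysts and at 1.14, 0.82 and 1.47 in oocytes. Its relative Bcl2l10 was at 0.00, 0.88 and 0.00 in blastocysts and at 11.16, 11.23 and 11.33 in oocytes, a difference of -10.95 (SE 0.24, limma adjusted p = 1.02e-08).

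Genes often used to normalize expression were not level. Of 11 tested, 7 were higher and 2 lower, and 3 were lower under equal medians and equal sums. Actb was at 9.77, 9.78 and 9.39 in blastocysts and at 2.87, 2.85 and 2.81 in oocytes, a difference of 6.80 (SE 0.14, limma adjusted p = 8.72e-09). Gapdh was at 7.42, 6.99 and 7.07 in blastocysts and at 3.13, 3.56 and 3.51 in oocytes, and Hprt at 9.95, 10.95 and 10.74 in blastocysts against 7.06, 7.38 and 7.19 in oocytes. Ywhaz was lower, at 5.79, 5.58 and 6.22 in blastocysts against 6.82, 6.83 and 6.60 in oocytes.

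Sex-linked and imprinted genes were sparsely measured. None of 6 Y-linked genes passed the filter, but Eif2s3y was at 3.29, 2.79 and 4.35 in blastocysts and 0 in oocytes, and Ddx3y at 2.69, 2.52 and 3.32 in blastocysts against 0.00, 0.09 and 0.02 in oocytes, so each blastocyst library held Y-linked transcripts. Xist, the RNA that silences the paternal X in mouse trophectoderm, stayed at 0.14, 0.58 and 0.03 in blastocysts and 0.01, 0.15 and 0.01 in oocytes. Rlim, the ligase that activates Xist, was the 1 tested gene of X inactivation and did not pass, at 3.79, 4.20 and 4.19 in blastocysts and 4.36, 4.47 and 0.08 in oocytes. On the X chromosome 39.2% of 240 tested genes were higher by 2 or more and 18.8% lower, with a median difference of 1.08, beside 31.8%, 21.95% and 0.43 over 6346 autosomal genes. Single autosomes varied as widely. The share higher by 2 or more and the median difference were 38.9% and 1.08 on chromosome 7, close to the X, and 22.9% and -0.42 on chromosome 12. Of 25 imprinted genes 5 were tested. Slc38a4, expressed from the paternal allele, was at 4.72, 3.94 and 4.24 in blastocysts and at 0.02, 0.09 and 0.00 in oocytes, and Mest, also paternal in the embryo, was at 3.42, 3.31 and 3.57 in blastocysts against 5.31, 5.83 and 5.78 in oocytes.

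Transcript length went with the direction of the difference. Among protein-coding genes of known length, the median transcript had 1831 bases for genes higher by 2 or more and 3456 bases for those lower by 2 or more, beside 2686 over all 5876. Among the 1471 shortest transcripts 52.8% were higher by 2 or more and 11.4% lower, and among the 1467 longest 9.34% were higher and 35.5% lower. Over 4 classes of increasing length the median difference was 2.27, 0.76, -0.15 and -1.19. The part of transcript length in the differences of the gene groups was not tested.

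Cumulus cells, which took no part in choosing the genes, placed the 2 sets differently. Of the 2176 genes higher by 2 or more, 54.5% had a cumulus level within 1 unit of the blastocyst level or above it, and 9.19% were under 1 there. Of the 1507 lower by 2 or more, 7.96% came within 1 unit of the oocyte level or above it, and 29.7% were under 1, beside 13.1% of all tested genes. Genes among the highest in oocytes were above 1 there, with cumulus means of 3.85 for Obox2, 3.43 for Gdf9 and 3.25 for H1foo. Other oocyte genes were under 1, such as Zp3 at 0.61 and Nlrp5 at 0.37. Whether the cumulus libraries held oocyte RNA was not tested. For the shares within 1 unit, no share over all tested genes was computed, so they are not shown to be particular to the 2 sets. Across genes blastocysts correlated with cumulus cells at 0.829 to 0.835, and oocytes at 0.597 to 0.628. Correlations across genes describe these libraries, since genes are not independent replicates.

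The filter left out some genes listed at 0 in 1 stage. In all, 155 genes were listed at 0 in every oocyte library with a mean of at least 3 in blastocysts, and 83 of them were not tested. In the other direction 373 genes were listed at 0 in every blastocyst library with a mean of at least 3 in oocytes, and 145 were not tested. A listed 0 has no known depth behind it, so it is not shown to be an absence of the transcript.

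The same comparison, on the same genes, was made in the PM2.5 libraries, which share no sample with the filtered-air ones. By the same test 3378 were higher in blastocysts (49.7%) and 2582 lower (38.0%). A total of 5658 genes passed in both exposures, every one in the same direction. Of the 2176 genes higher by 2 or more in filtered air 99.7% also passed upward in PM2.5, and of the 1507 lower ones 99.7% passed downward. The median difference of these sets was 3.90 and -3.51 in PM2.5 and 3.88 and -3.53 in filtered air.

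The stage difference itself differed between exposures for 6 of 6797 genes, or 0.0883%, by the limma test of the difference of differences. Eps8, a protein-coding gene for an actin regulator, was 1 of them. It was at 0.12, 0.83 and 0.26 in PM2.5 blastocysts and 2.93, 3.40 and 2.95 in PM2.5 oocytes, and at 0.21, 0.11 and 0.20 in filtered-air blastocysts and 5.63, 5.67 and 5.37 in filtered-air oocytes. The stage difference was -2.69 in PM2.5 and -5.39 in filtered air, and their difference was 2.70 (SE 0.29, limma adjusted p = 0.00157). The values of the 2 exposures did not overlap in oocytes and overlapped in blastocysts.

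**Figure D5:**
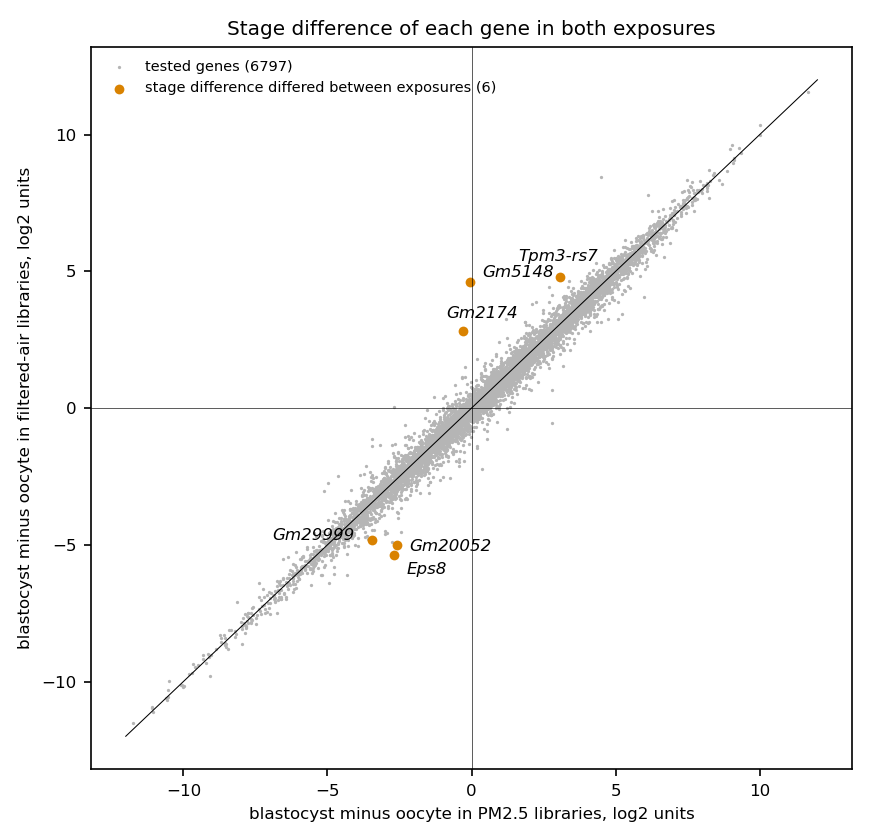
Stage difference of each of the 6797 tested genes, blastocyst minus oocyte in log2 units, in the PM2.5 libraries (horizontal axis) and in the filtered-air libraries (vertical axis), with the line of equal differences. Nearly all genes lie along the line; the 6 genes in orange differed between exposures, among them Eps8 at -2.69 and -5.39.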

How the data were processed

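The authors deposited one table of log2(normalized count + 1) values, and everything here was computed from it. Per the labels' protocols, cells were lysed and reverse transcribed directly, first-strand cDNA was tailed and amplified by PCR, and libraries were sequenced. The submitters' processing notes name FastQC, Cuffnorm, DESeq 1.22.1 and mm10, with no role or order. No source used here names the aligner or the annotation. Counts could not be recovered, so depth is unknown and no counting interval is given. Genes with a mean of at least 2 over the 6 libraries and above 0 in at least 3 were tested with limma 3.58.1 in R 4.3.3 (moderated, with a mean trend), two-sided, with Benjamini-Hochberg adjustment over all 6797 genes and a threshold of 0.05. The procedure was also run on simulated data in which few genes changed. Most genes differed in the real data, so that run does not show how the test performs here. Gene positions, biotypes and promoter windows are RefSeq's (GRCm38.p6, the mm10 build), and lengths come from an older annotation. Named genes were the 4 markers, the 15 largest called differences each way and the 10 highest per stage among protein-coding genes, and list members by p-value; other genes named were chosen after their values were seen. Gene lists and members were chosen with earlier results of these data known. Replicate numbers were not used to pair the libraries in the main test, and the labels do not say whether they do. Alternatives covered filters, pseudocounts, scalings, variance models, left-out libraries and a replicate block. A few single-gene results are not reported here.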

Additional observations from a re-analysis of the deposited data

Results flagged for a closer look

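For 6 genes the stage difference itself differed between the exposures (limma, adjusted over 6797 genes; each value is the PM2.5 stage difference minus the filtered-air one). Gm5148 had -4.67 (SE 0.17, limma adjusted p = 3.59e-08), with 0.00, 0.05 and 0.04 in PM2.5 blastocysts and 0.13, 0.04 and 0.06 in PM2.5 oocytes, against 4.91, 4.80 and 4.58 in filtered-air blastocysts and 0.08, 0.12 and 0.22 in filtered-air oocytes. Gm20052, a long noncoding RNA, had 2.41 (limma adjusted p = 2.79e-05), was listed at 0 in all blastocysts and stood at 2.49, 2.61 and 2.70 in PM2.5 oocytes against 5.09, 4.98 and 4.96 in filtered-air oocytes. Eps8 had 2.70, with the values given in the report. Gm2174 had -3.14 (limma adjusted p = 0.00623), with 0 in all PM2.5 blastocysts and 4.24, 2.94 and 3.79 in filtered-air blastocysts. Gm29999, a long noncoding RNA, had 1.38 (limma adjusted p = 0.0112), with 3.56, 3.25 and 3.54 in PM2.5 oocytes against 4.84, 4.91 and 4.73 in filtered-air oocytes and 0 in all blastocysts. Tpm3-rs7, a pseudogene, had -1.70 (limma adjusted p = 0.0215), with 3.43, 3.79 and 3.5 in PM2.5 oocytes against 1.58, 2.02 and 1.38 in filtered-air oocytes. Groups of 3 were too small for a search for outlying libraries.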

How the results depend on the processing

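Without a filter on low values 7247 genes were higher and 5696 lower, 3271 and 2266 of them by 2 or more, and with a mean of at least 3 over the 6 libraries 1925 were higher and 1596 lower, 1216 and 898 by 2 or more, because fewer genes entered. With a pseudocount of 10, which shrinks differences of low genes by construction, 992 were higher and 645 lower by 2 or more. Leaving out 1 library gave 3204 to 3282 higher and 2533 to 2576 lower, 2150 to 2219 and 1490 to 1520 by 2 or more, 3293 to 3371 and 2490 to 2571 in PM2.5, and 5 to 9 genes that differed between exposures. With the replicate block the counts were 3294 and 2588, 2177 and 1509 by 2 or more, 3371 and 2568 in PM2.5, and 4 between exposures. The deviations of same-numbered libraries correlated at -0.070, -0.016 and -0.072. Deviations from a mean of 3 depend on each other, so these values cannot show whether same-numbered libraries share mothers or a batch. Of 227 named genes tested, 19 lost or gained a call under at least 1 of 18 alternatives and 4 turned sign with a call before or after: Ccnb2 was -0.045 under quantile normalization and -0.11 under equal sums, Dppa3 -0.060 under equal sums, Fgfr1 -0.17 under quantile normalization, -0.050 under equal medians and -0.042 under equal sums, and mt-Atp6 ran over -0.61 to 0.75 with 1 library left out, positive without blastocyst replicate 1. Of 35 list medians 3 turned sign from a value beyond the spread between libraries: germline piRNA genes to 0.13 and imprinted genes to -0.58 at a mean of at least 3, and the mitochondrial genome to -0.16 under quantile normalization; where no construction is named, the cause was not tested. With 3 libraries per stage and no known depth, small differences and listed zeros are the least certain values.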
